A study of Mus musculus with 22 samples.

Results

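The 10 genes described here are markers of astrocytes and radial glia: Gfap, Aqp4, Aldh1l1, Aldoc, Slc1a3, Slc1a2, Fabp7, Nes, Vim and Hopx. They were taken by name, not by a threshold on measured values, from the 24490 gene entries that each library lists, and all 10 were found in every library. Their RNA serves as a gauge of how much glial material each neuron culture held.

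Radial glia are the stem cells of the embryonic cortex. They first make neurons and then, around birth, astrocytes, so markers of both cell types are present when cortex is dissected from late embryos. Cultures made from such tissue are mostly neurons but carry along progenitors and young astrocytes, whose share can differ from dish to dish.

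The study measured RNA in cortical neurons from C57BL/6 mouse embryos at E16.5 (days of gestation), used at 7 days in vitro. All groups, the controls included, are labelled Creb1-/-, a genotype that lacks a functional gene for the transcription factor CREB. Herpes simplex virus (HSV) vectors carried GFP in the controls and otherwise 1 of 4 forms of CREB. These were the wild type (WT), a form that cannot be glycosylated (S40A), a form that cannot be phosphorylated (S133A), and the double mutant S40A-S133A. GFP, WT and S40A were each sequenced in 2 libraries after 4 h and 4 libraries after 8 h of virus, and S133A and S40A-S133A in 2 libraries each after 8 h, giving 22 libraries. Every culture was silenced beforehand with 1 µM tetrodotoxin (TTX), which blocks sodium channels, and 100 µM D-AP5, which blocks NMDA receptors, and was then depolarized for 2 h with 55 mM KCl. No culture without virus or without depolarization was part of these groups. Cortices were dissociated one by one, per the labels, but the labels do not tie libraries to animals, dishes or litters.

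The numbers in the names of the deposited files fall into consecutive blocks that each hold 1 library of every virus used, and these blocks are called runs here. Run A is replicate 1 and run B replicate 2 of each 4 h group. Runs C1 and C2 are replicates 1 and 2 of GFP, WT and S40A at 8 h. Runs D1 and D2 hold replicates 3 and 4 of the same viruses, plus S133A and S40A-S133A replicates 1 (D1) and 2 (D2). What a run stands for in the laboratory is not among the labels. Creb1 itself lay between 9.69 and 15.9 scaled FPKM in the 6 GFP libraries and between 236 and 2314 in the 16 CREB libraries, so the level followed the virus label in every library. Creb1 was thus not at 0 in the GFP libraries, which are labelled Creb1-/-. The labels do not say which part of the gene is deleted, so this value does not check the genotype. The summed level of 20 neuron markers was 2127 to 3412 scaled FPKM and that of the 10 glial genes 103 to 902. Run A stood apart in its files, because 14.6 to 15.5% of its values above 1 FPKM lay outside their own deposited confidence interval, against at most 0.052% in any other library. Among the glial genes this touched Fabp7 and Vim in all 3 libraries of run A and Aldoc in WT and S40A. GFP replicate 2 at 8 h also stood apart: over all tested genes its deviations from the gene means correlated at 0.29 to 0.35 with the run A libraries and at -0.13 to -0.06 with the other 2 libraries of its own run. These 4 libraries also shared values of common genes that the other 18 lacked. Rpl9, a ribosomal protein gene, was at 249.5 to 258.0 scaled FPKM in them and at 0.177 to 0.993 elsewhere. Gapdh, a glycolysis gene of every cell, was at 13.4 to 15.4 in run A, 131.9 in GFP replicate 2 at 8 h and 0.713 to 1.58 elsewhere. The part of this difference in the comparisons that use these libraries was tested only by leaving libraries out. Run A as a whole was left out only of the comparison of 8 h with 4 h. In the virus comparisons at 4 h and the differences between times, its libraries were left out only singly. Run A cannot be left out of its comparison with run B.

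Levels are given as scaled FPKM, the deposited fragment density (FPKM, corrected for transcript length and library size) after 1 further scaling factor per library. The values are per length, but with Gapdh and Rpl9 near 1 in 18 libraries the deposited level of a single gene can lie far from its abundance, so the order given next is that of the deposited values. Fabp7, a fatty acid binding protein of radial glia and young astrocytes, had the highest value of the 10, at 156 ± 149 (SD over all 22 libraries). Vim, the intermediate filament vimentin, followed at 53.4 ± 24.2. Slc1a3 at 15.1 ± 7.88 and Aldoc at 15.1 ± 12.8 came next and did not differ beyond their spread. Slc1a2 at 8.50 ± 2.08, Nes at 8.22 ± 6.36, Hopx at 7.92 ± 4.54, Gfap at 7.37 ± 6.82 and Aldh1l1 at 5.90 ± 4.47 overlapped with one another. Aqp4, the water channel of mature astrocyte endfeet, was lowest at 1.17 ± 0.916, and its level was below 1 scaled FPKM in 12 of the 22 libraries. The plot of levels by group shows all 220 values.

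**Figure D1:**
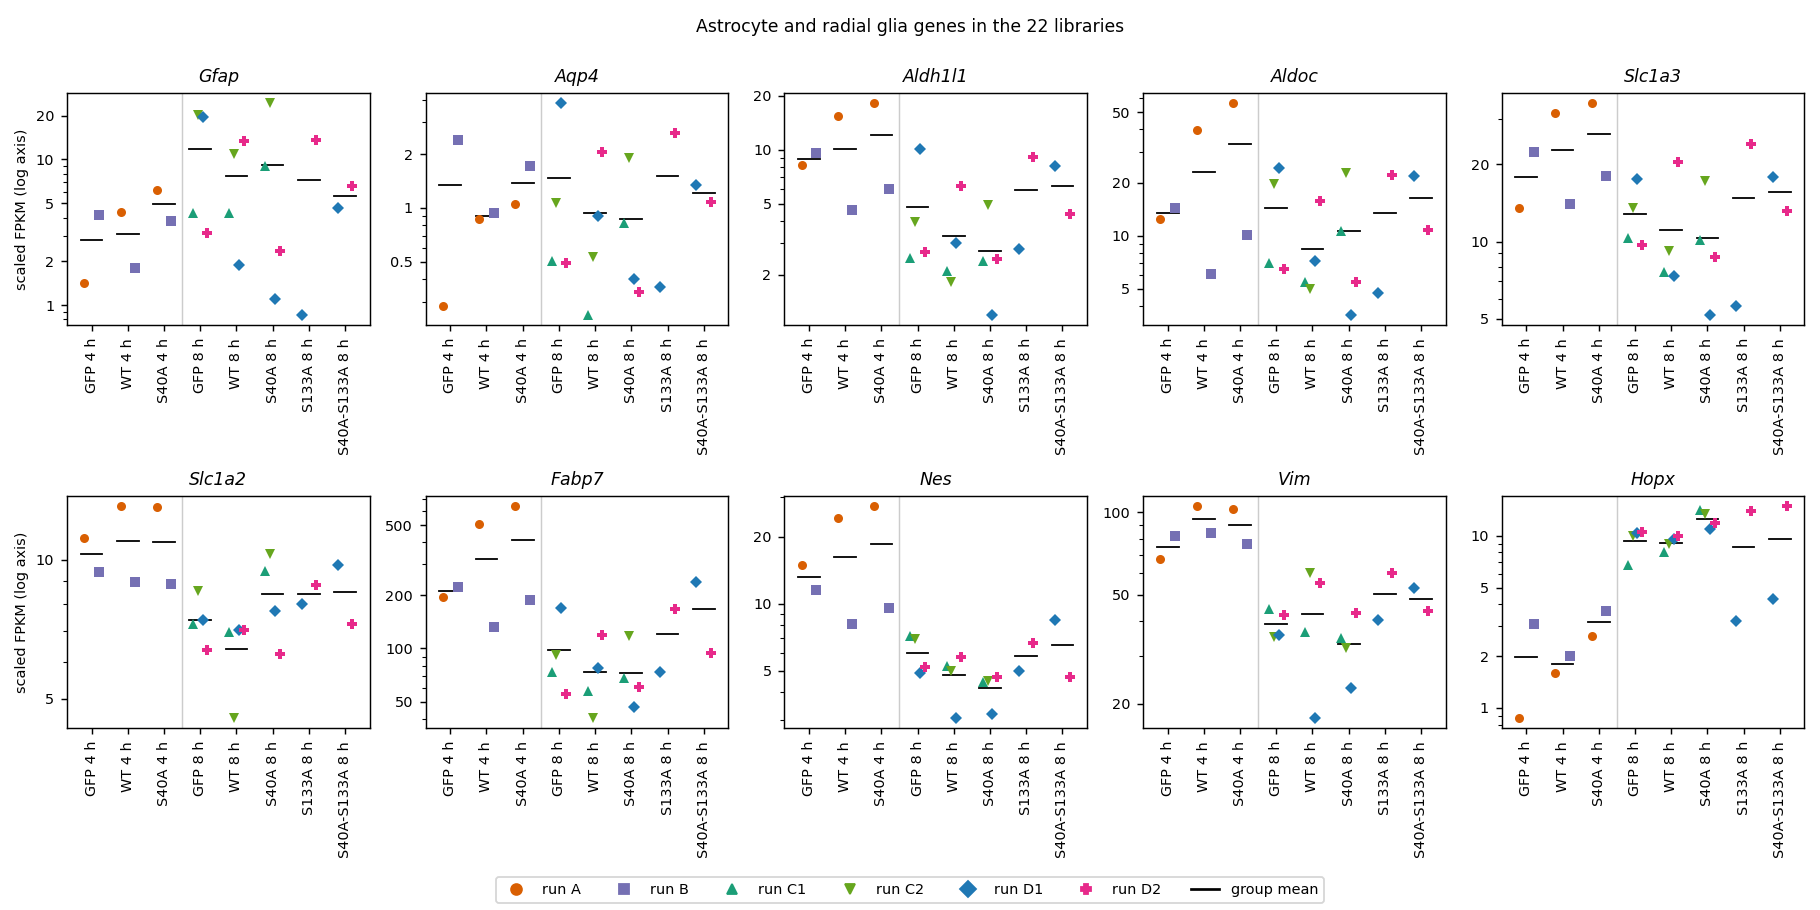
Scaled FPKM (log axis) of each of the 10 genes in the 22 libraries, by virus and hours of expression; symbols mark the run and the black line the group mean. Libraries of 1 group spread widely, and Hopx is the only gene of the 10 whose 8 h values for GFP, WT and S40A all lie above its 4 h values.

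Gfap (chr11:102887336-102897200 on mm10, as the files place it) encodes the intermediate filament protein of astrocytes and varied most. At 4 h it was 1.42 and 4.17 scaled FPKM with GFP, 4.38 and 1.81 with WT, and 6.15 and 3.80 with S40A, in runs A and B. At 8 h, in runs C1, C2, D1 and D2, it was 4.30, 20.2, 19.6 and 3.14 with GFP, 4.29, 11.0, 1.90 and 13.4 with WT, and 9.03, 24.3, 1.11 and 2.36 with S40A. S133A gave 0.864 and 13.7, and S40A-S133A 4.62 and 6.61, in runs D1 and D2. High and low libraries stood in every 8 h group with 4 libraries, so all the groups overlapped, and the highest 8 h value was 28.1 times the lowest. In bulk RNA, fewer glial cells and less RNA per glial cell cannot be told apart, here or in the results that follow. The interval that Cufflinks deposited with each Gfap value had a median half-width of 11.1% of its midpoint, far smaller than this spread.

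Aqp4 lay at a lower level. It followed Gfap closely with run means subtracted (correlation 0.97), but less so without that subtraction (0.64). Its lowest value was 0.254 (WT replicate 1 at 8 h, run C1) and its highest 3.84 (GFP replicate 3 at 8 h, run D1). Aldh1l1 (chr6:90550848-90599171), a folate enzyme used as a broad astrocyte marker, ran from 1.20 with S40A replicate 3 at 8 h to 18.1 with S40A replicate 1 at 4 h. Aldoc (chr11:78324198-78326760), the brain aldolase of glycolysis that astrocytes express, ran from 3.57 to 56.3, with both ends again in those S40A libraries. The same virus thus gave the extreme values at both ends for Aldh1l1 and for Aldoc.

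Slc1a3 (GLAST, chr15:8634124-8710807) and Slc1a2 (GLT-1, chr2:102658683-102790784) are the glutamate transporters of astrocytes, and Slc1a3 is also made by radial glia. The 6 values of Slc1a3 at 4 h ran from 13.6 (GFP, run A) to 34.6 (S40A, run A), with a median of 20.1. At 8 h it was 10.4, 13.5, 17.6 and 9.73 with GFP, 7.59, 9.17, 7.37 and 20.4 with WT, and 10.2, 17.3, 5.20 and 8.69 with S40A. It was 5.61 and 23.9 with S133A and 17.9 and 13.2 with S40A-S133A. The 2 S133A libraries lay near the lowest and at the highest end of all 8 h values. Slc1a2 was far steadier: its 16 values at 8 h ran from 4.55 to 10.3, with a median of 7.32, and its 6 values at 4 h from 8.87 to 13.0, with a median of 10.3. The ranges at the 2 times overlapped.

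The promoters of Slc1a3 and Aldoc are shown as examples that hold a motif searched for here. The viruses supplied CREB, which binds the CRE sequence. Whether these motifs play a part in the levels was not tested. The 250 bases before each start site are from RefSeq on GRCm38.p6 (mm10), for Slc1a3 chr15:8710808-8711057 on the minus strand and for the Aldoc start at chr11:78323948-78324197 on the plus strand. Capitals mark the CRE half-site TGACG and the STAT motif TTCNNNGAA, which STAT3, a factor of astrocyte formation, can bind.
Slc1a3: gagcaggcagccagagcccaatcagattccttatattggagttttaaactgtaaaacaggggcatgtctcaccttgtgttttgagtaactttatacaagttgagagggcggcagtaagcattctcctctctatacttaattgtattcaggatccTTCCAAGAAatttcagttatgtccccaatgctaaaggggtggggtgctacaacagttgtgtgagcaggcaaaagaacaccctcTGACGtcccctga
Aldoc: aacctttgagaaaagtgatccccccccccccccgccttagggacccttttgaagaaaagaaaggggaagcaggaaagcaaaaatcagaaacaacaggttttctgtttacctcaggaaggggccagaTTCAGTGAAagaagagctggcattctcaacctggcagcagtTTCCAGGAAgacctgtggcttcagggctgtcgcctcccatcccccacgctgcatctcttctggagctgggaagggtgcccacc
Windows of 300 bases (250 before to 50 after the start) were found for 9 of the 10 genes, as 11 start sites, and both strands were searched. The full CRE, TGACGTCA, was in none of the 11 windows and in 1.79% of all 32851 windows. The half-site TGACG, which the full CRE also contains, was found only before Slc1a3, 13 bases upstream of the start, and in 20.8% of all windows. The AP-1 motif TGANTCA was in none and in 7.81% of all. The STAT motif was found at Slc1a3, 96 bases before the start, at Aldoc, 124 and 83 bases before, and at Gfap, where it begins 2 bases before the start, and in 8.30% of all windows. No motif was found at the other Aldoc start (chr11:78322823-78323072) or in the windows of the other genes. A match describes the letters in the window and is not a measured binding site.

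Among the radial glia genes, Fabp7 (chr10:57784923-57788450) at 4 h was 197 and 224 with GFP, 510 and 132 with WT, and 640 and 188 with S40A. At 8 h it was 74.0, 91.5, 169 and 55.0 with GFP, 57.0, 40.5, 77.0 and 119 with WT, and 68.3, 117, 46.5 and 60.1 with S40A. It was 73.4 and 168 with S133A and 239 and 94.3 with S40A-S133A. With GFP, WT and S40A each, no 8 h value reached a 4 h value of the same virus, but over all viruses 3 libraries at 8 h lay within the 4 h range of 132 to 640: GFP replicate 3, S133A replicate 2 and S40A-S133A replicate 1.

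Nes (chr3:87971093-87980451) encodes nestin, the filament protein of neural progenitors. At 4 h it was 14.9 and 11.5 with GFP, 24.3 and 8.15 with WT, and 27.4 and 9.62 with S40A. At 8 h its 16 values ran from 3.08 to 8.44, with a median of 5.00. The highest 8 h value, again S40A-S133A replicate 1, lay above the lowest 4 h value, and all other 8 h values lay below every 4 h value. Vim (chr2:13574311-13582826) was 67.3, 82.3, 105, 84.3, 103 and 76.7 in the 6 libraries at 4 h, in the order GFP, WT, S40A with run A before run B. At 8 h its 16 values ran from 17.8 (WT replicate 3) to 60.1 (S133A replicate 2), with a median of 41.3, so the times did not overlap for Vim.

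Hopx (chr5:77086986-77115123) encodes a small homeodomain protein that marks radial glia and later astrocytes. It was 0.878 and 3.06 with GFP, 1.59 and 2.00 with WT, and 2.62 and 3.67 with S40A at 4 h. At 8 h it was 6.77, 9.90, 10.3 and 10.5 with GFP, 8.07, 8.93, 9.52 and 9.92 with WT, and 14.1, 13.4, 11.0 and 11.8 with S40A. It was 3.18 and 13.99 with S133A and 4.28 and 14.8 with S40A-S133A, in runs D1 and D2. All 4 S40A values at 8 h thus lay above all GFP and WT values, a separation picked out after the values were seen. For Nes the S40A values at 8 h (3.20 to 4.67) likewise all lay below those of GFP (4.88 to 7.16). The share of all tested genes that separate in such a way was not counted, so this does not set Hopx apart. The D1 libraries of S133A and S40A-S133A, which over all tested genes were each other's most similar library (r = 0.30), were the lowest of all 8 h libraries, near the highest 4 h value.

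The first question the design asks is whether any form of CREB changed the glial genes. None of the 10 was called in any of the 11 virus comparisons, where called means an adjusted p under 0.05 in limma over all 12097 genes tested. Calls were rare throughout. At 8 h the share of all tested genes called was 0.00827% for WT against GFP, 0.00827% for S40A against GFP, 0.0248% for S133A against GFP, 0.0165% for S40A-S133A against GFP and 0.0248% for all CREB forms against GFP. It was 0% for S40A against WT, where limma called 0 genes and 514 had an unadjusted p under 0.05, 0.0165% for S133A against WT and 0.00827% for S40A-S133A against WT. At 4 h it was 0.0992% for WT against GFP, 0.0909% for S40A against GFP and 0.0909% for S40A against WT. Against shares this close to 0, the count of 0 among 10 genes sets the glial genes apart from no other genes.

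The intervals show what these fits could not see. For Gfap, WT at 8 h minus GFP was -0.46 on the log2 scale (SE 0.86, 95% interval -2.35 to 1.42), a range from 0.196 to 2.67 times the GFP level of FPKM plus 1. The interval was narrower for Aldoc, with -0.64 (-2.03 to 0.76), and for Fabp7, with -0.39 (-1.41 to 0.63). For Slc1a2, the steadiest gene, it was -0.19 (-0.54 to 0.16), or 0.686 to 1.12 times. At 4 h the interval of WT minus GFP ran from -2.95 to 3.44 for Aldoc and from -1.33 to 1.60 for Gfap, wider than at 8 h for 8 of the 10 genes and narrower for Gfap and Vim. The 4 h fit has no run term, so differences between runs A and B count as spread in its intervals.

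The differences of the mutant forms from GFP at 8 h were no clearer. The smallest unadjusted p among the 10 genes for S40A minus GFP was for Nes, at -0.43 (SE 0.18, interval -0.83 to -0.03, adjusted p = 0.826). Hopx, whose S40A values, like those of Nes, did not overlap those of GFP, differed by 0.40 (SE 0.38, adjusted p = 0.93), a spread to which the 2 low D1 libraries contribute. Fitted with only the S40A and GFP libraries at 8 h, which leaves out the WT, S133A and S40A-S133A groups, the difference had an adjusted p of 0.882. S133A minus GFP ran from -0.41 for Hopx to 0.44 for Vim over the 10 genes, and S40A-S133A minus GFP from -0.20 for Hopx to 0.67 for Fabp7. Against WT, S40A differed by 0.35 for Slc1a2 (SE 0.16, interval -0.01 to 0.70) and by 0.42 for Hopx (interval -0.40 to 1.24), both with an adjusted p of 1. S40A-S133A against WT gave 1.06 for Fabp7 (interval -0.26 to 2.38) and 0.50 for Nes (interval -0.01 to 1.02), likewise not called.

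**Figure D2:**
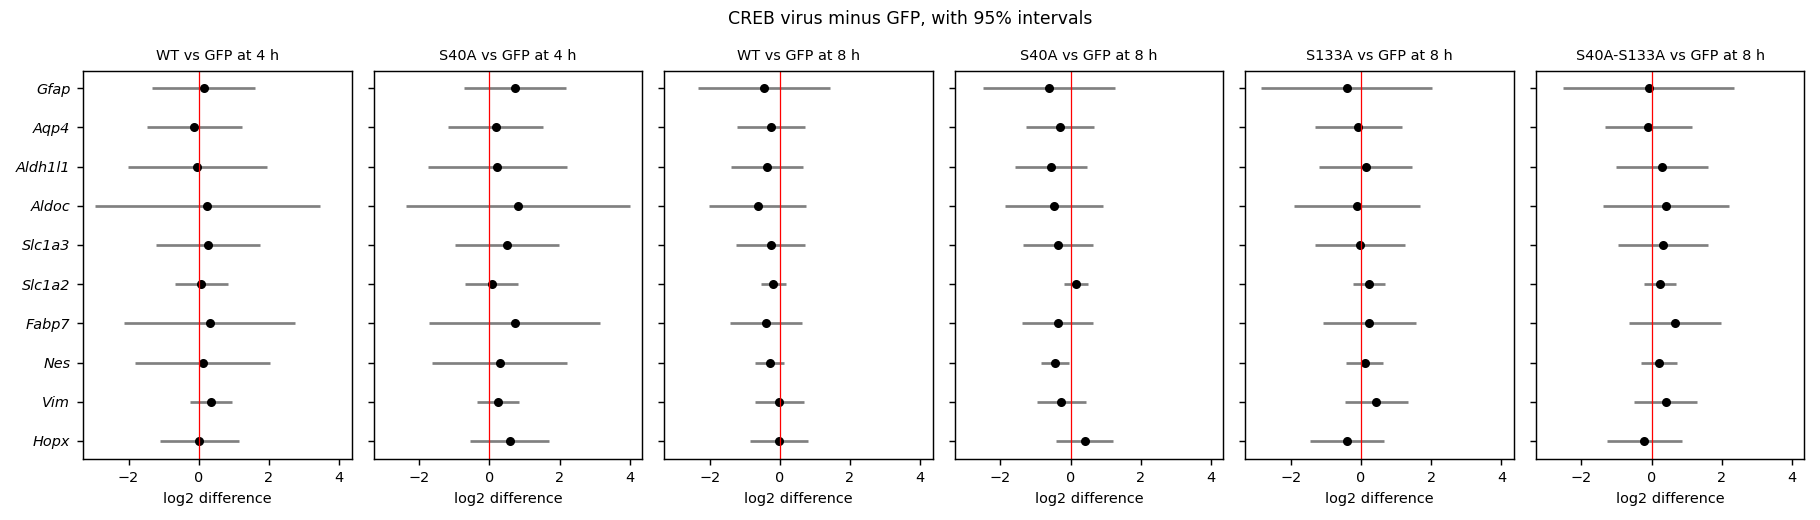
Log2 difference of each CREB virus from GFP (points) with 95% intervals (lines) for the 10 genes, at 4 h and 8 h. All intervals cross 0 except that of Nes for S40A at 8 h, -0.83 to -0.03.

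Within runs, where each CREB library was set against the GFP library of its own run, the 10 genes often lay on the same side of GFP, but the side differed from run to run. With WT at 8 h the median difference over the 10 genes was -0.26 in C1, -0.65 in C2, -1.14 in D1 and 0.99 in D2 on the log2 scale. All 10 genes were below GFP in D1, and 9 of 10 were above it in D2. With S133A the median was -1.47 in D1, where 7 of 10 were below GFP and Slc1a2, Vim and Nes slightly above, and 1.25 in D2, where all 10 were above. At 4 h all 10 were above GFP in run A with WT (median 0.75) and with S40A (median 1.00), and 9 of 10 were below it in run B with each (medians -0.70 and -0.25). S40A at 8 h gave medians of 0.13, 0.25, -1.69 and -0.11 in C1, C2, D1 and D2, with 5, 8, 2 and 3 of the 10 genes above GFP. S40A-S133A gave -0.05 in D1, with 5 genes above and 5 below, and 0.47 in D2, with 9 above. These differences share 1 GFP library per run, so a high or low GFP library shifts every virus of that run.

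For Gfap the swing was largest: S133A minus GFP was -3.47 in D1 and 1.83 in D2, and WT minus GFP was -2.83 in D1 and 1.80 in D2. Fabp7 went the same way, with S133A minus GFP at -1.19 in D1 and 1.59 in D2. For Slc1a2 the values of S133A minus GFP were 0.10 and 0.41. The GFP library of run D1 held the most Aqp4, Aldoc and Aldh1l1 of the 16 libraries at 8 h, and the GFP library of run D2 was among the lower ones.

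The difference between the effects at 8 h and at 4 h was also tested. None of the 10 genes was called for WT against GFP (0.0165% of all tested genes were) or for S40A against GFP (0.00827%). The estimates for Fabp7 were -0.69 (interval -2.63 to 1.24) for WT and -1.09 (interval -3.02 to 0.85) for S40A.

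The runs themselves were then compared, with virus group as a term. Between runs A and B at 4 h, 47.6% of all tested genes were called, and 1 of the 10 glial genes was: Nes was lower in run B, by -1.08 on the log2 scale (SE 0.25, adjusted p = 0.00366). Aldoc at -1.57 (SE 0.77, adjusted p = 0.114) and Fabp7 at -1.17 (SE 0.59, adjusted p = 0.122) were not called. Leaving out either GFP library at 4 h takes the GFP group out of this comparison. Both therefore make the same check, with Fabp7 at -1.85 and Aldoc at -2.45. Run A stood apart in its files, as described above, and its part here could not be tested by leaving it out. Between runs D1 and D2, 26% of all tested genes and 0 of the 10 were called, with 8 of the 10 higher in D2. Hopx, at 0.72 (SE 0.27, adjusted p = 0.068), and Vim, at 0.60 (SE 0.23, adjusted p = 0.0738), came nearest. Leaving out GFP replicate 3 or S40A replicate 4 took Hopx past the threshold (0.88 and 0.89). Leaving out either S40A-S133A library, again the same check, gave 0.82 for Vim. Creb1 also differed between these runs, at 555 to 745 scaled FPKM in the 4 CREB libraries of D1 and 1861 to 2314 in those of D2; its part in the result was not tested. Neither set D against set C (0.322% of all genes called) nor run C2 against C1 (0%, with 0 genes called by limma and 1278 at an unadjusted p under 0.05) gave a call among the 10. Gfap differed by -1.03 between the sets (interval -2.35 to 0.30), and its interval for C2 minus C1 ran from -0.37 to 3.38.

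Libraries taken after 8 h of virus differed from those after 4 h in 7 of the 10 genes, over GFP, WT and S40A, 1 higher and 6 lower, against 42.8% of all tested genes (21.4% higher and 21.4% lower). Fabp7 fell by 1.82 on the log2 scale (SE 0.37, adjusted p = 0.000942), Nes by 1.40 (SE 0.22, adjusted p = 0.000138), Aldh1l1 by 1.31 (SE 0.34, adjusted p = 0.00613) and Vim by 1.20 (SE 0.20, adjusted p = 0.000254). Slc1a3 fell by 0.91 (SE 0.31, adjusted p = 0.0251) and Slc1a2 by 0.49 (SE 0.12, adjusted p = 0.00447). Hopx rose by 1.82 (SE 0.25, adjusted p = 4.2e-05), to 3.53 times its 4 h level of FPKM plus 1. Gfap differed by 0.84 (SE 0.58, adjusted p = 0.253), Aldoc by -0.84 (SE 0.49, adjusted p = 0.178) and Aqp4 by -0.14 (SE 0.30, adjusted p = 0.739), none of them called. Hours vary only between runs, while the fit counts each library as independent, so its SEs and adjusted p-values can be too small. Every 4 h library belongs to runs A and B and every 8 h library to the C and D runs. Hours and library set therefore cannot be told apart in this comparison.

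Run A carried part of it. Without its 3 libraries, an alternative added after the data were seen, 4 of the 10 genes were called: Hopx (1.54, adjusted p = 0.00307), Fabp7 (-1.24, adjusted p = 0.0305), Nes (-0.86, adjusted p = 0.00279) and Vim (-1.13, adjusted p = 0.00807). Of all tested genes 39.2% were called in that fit, so 4 of 10 is near the share over all genes. Leaving out GFP replicate 2 at 8 h as well gave 4 again. With only run A left out, Slc1a2 differed by -0.28 (adjusted p = 0.143), Slc1a3 by -0.69 (adjusted p = 0.19) and Aldh1l1 by -0.84 (adjusted p = 0.127). Within each virus the direction was shared for Hopx, at 1.89 with GFP, 1.86 with WT and 1.72 with S40A, and the 8 h and 4 h libraries did not overlap in any of the 3. Fabp7 likewise gave -1.23, -1.92 and -2.32, Nes -1.02, -1.43 and -1.75, and Vim -0.91, -1.27 and -1.43, with no overlap. The share of all tested genes without overlap was not counted, so this does not set these genes apart. For Gfap the 3 values were 1.49, 0.88 and 0.15, and the times overlapped with each virus.

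**Figure D3:**
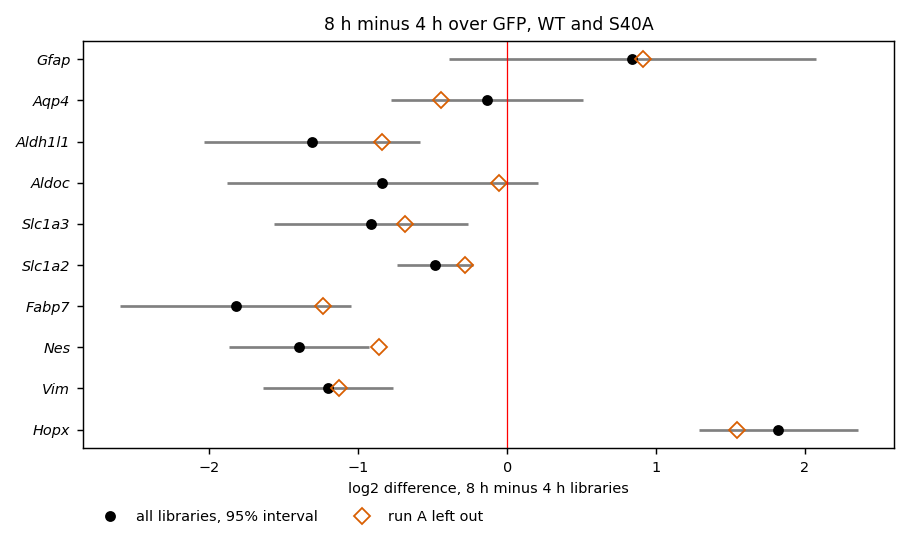
Log2 difference between the 8 h and 4 h libraries over GFP, WT and S40A (black, with 95% intervals), and without run A (orange diamonds), for the 10 genes. Hopx lies at 1.82 to the right, Fabp7 at -1.82 to the left, and the diamonds of Slc1a2, Slc1a3 and Aldh1l1 lie closer to 0 than the points.

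Most calls among other radial glia and progenitor genes were also lower at 8 h, while other astrocyte genes were called in both directions. Of 39 radial glia genes tested, 24 fell and 1 rose, with a median of -0.67, and without run A 16 fell and 2 rose. The 8 with the smallest p were Ptprz1 (-1.46), Gas1 (-1.29), Id2 (0.87), Emx2 (-1.08), Nfia (-1.05), Cdh2 (-0.84), Ddah1 (-0.81) and Sox9 (-1.43), where Ptprz1 is a receptor phosphatase of radial glia and Emx2 and Sox9 are transcription factors of cortical progenitors. Of the 20 genes of intermediate and dividing progenitors, 17 fell and 1 rose (median -1.15; without run A 14 fell and 1 rose), among them Mki67 (-1.87) and Top2a (-2.55), which are made in dividing cells. Of 36 other astrocyte genes tested, 5 rose and 4 fell (median 0.12; without run A 1 rose and 3 fell), led by Gabrg1 (-0.58), Cpe (-0.44) and Ncan (-0.34), and Gpr37l1, an astrocyte receptor, rose by 1.38. The median difference over all tested genes was -0.03. With run means subtracted, Gabrg1, Cpe, Ncan and Gpr37l1 correlated with the mean of the 10 genes at -0.12, 0.15, 0.51 and 0.56. The median correlation of their list was 0.82. Of the 20 neuron genes 7 rose and 2 fell, but without run A 4 rose and 4 fell, and of the 10 oligodendrocyte lineage genes 6 fell and 0 rose, with Olig2 at -2.08, and 5 fell without run A. Beside these counts stand the shares over all genes, 21.4% in each direction and, without run A, 19.9% higher and 19.3% lower. The remaining lists gave 3 lower and 0 higher of 13 inhibitory neuron genes, 1 lower of 2 microglia genes and 3 higher of 6 vascular and fibroblast genes. A difference between these lists was not tested, nor was the part of dividing cells in the values of Fabp7, Nes and Vim.

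The 10 genes were among the more variable ones. Within runs, the SD of each gene's log2 values was above that of 78.8% (Slc1a2) to 96.1% (Gfap) of all tested genes. The runs held 83.3% of the variance of Nes, 80.8% of that of Hopx and 71.2% of that of Vim, but 42.6% for Gfap, 34.2% for Aldoc and 19.3% for Aqp4, with a median of 69.7% over all tested genes. After run means were subtracted, virus held 7.02% of the variance of Gfap and 5.04% of that of Aqp4 at 8 h, against a median of 29.9% over all tested genes. For Nes it held 48.8%, for Slc1a2 39.8% and for Vim 30.9%, all above that median. The spread of Gfap and Aqp4 thus lay largely between libraries of the same run, with little of it at 8 h between viruses.

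That spread was shared between genes. With run means subtracted, the 15 pairs among Gfap, Aqp4, Aldh1l1, Aldoc, Slc1a3 and Fabp7 had correlations of 0.82 to 0.97 over the 22 libraries, with a median of 0.91. These 6 were grouped after their values were seen. Without that subtraction the same pairs ran from 0.12 to 0.96, the lowest between Gfap and Fabp7. Slc1a2 correlated most with Aldoc (0.68), and Nes and Vim with each other (0.76). Hopx stood apart, at -0.46 to 0.44 with the other 9. All points share library, scaling and run, so the correlations are given as descriptions.

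**Figure D4:**
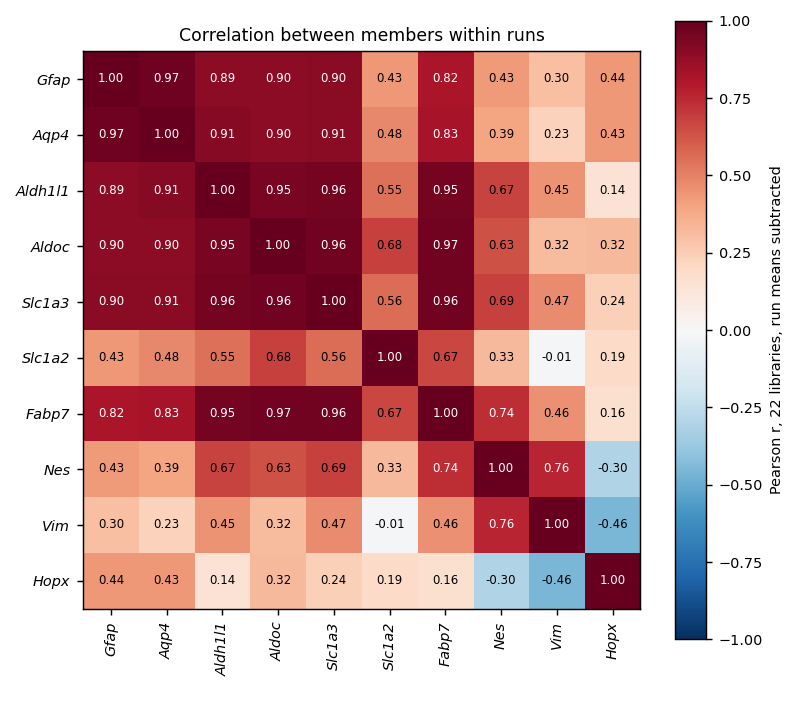
Pearson correlation between the 10 genes over the 22 libraries after the mean of each run was subtracted (colour scale from -1 to 1). Gfap, Aqp4, Aldh1l1, Aldoc and Slc1a3 form a block with Fabp7, while Slc1a2, Nes, Vim and Hopx are less alike.

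Other astrocyte genes traced the same libraries. The genes most like the mean of the 10 over the 22 libraries with run means subtracted were Apoe (0.97), Mlc1 (0.96), S1pr1 (0.96), Bcan (0.96), Abhd4 (0.95), Dbi (0.94), Lrig1 (0.94) and Asrgl1 (0.94). Apoe encodes the main lipid carrier secreted by astrocytes, Mlc1 a membrane protein of astrocyte endfeet and Bcan the matrix proteoglycan brevican. Without that subtraction S1pr1, Bcan, Dbi, Mlc1, Asrgl1 and Abhd4 were again among the first 8, joined by Myo6 (0.92) and Ndrg2 (0.92). For single members the most alike other gene was Gja1, the astrocyte gap junction protein, for Aqp4 (0.98), Mfge8 for Fabp7 (0.97), Tead1 for Vim (0.94), Tead2 for Nes (0.91) and Epdr1 for Hopx (0.91). Of the 36 other astrocyte genes, 31 (86.1%) had a correlation above 0.5 with the mean of the 10, against 6.09% of all tested genes. The share was 19 of 39 for radial glia genes, 8 of 23 for signalling genes of glial fate, 4 of 10 for the oligodendrocyte lineage, 2 of 20 for progenitors and 1 of 7 for reactive astrocyte genes. It was 0 of 20 for neuron genes (median correlation -0.23), 0 of 13 for inhibitory neuron genes (-0.47), 0 of 2 for microglia and 0 of 6 for vascular cells and fibroblasts. Without subtraction of run means the order of the lists changed: the share was 25 of 39 for radial glia genes, 19 of 36 (52.8%) for the other astrocyte genes and 10 of 20 for progenitors, against 6.77% of all tested genes.

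**Figure D5:**
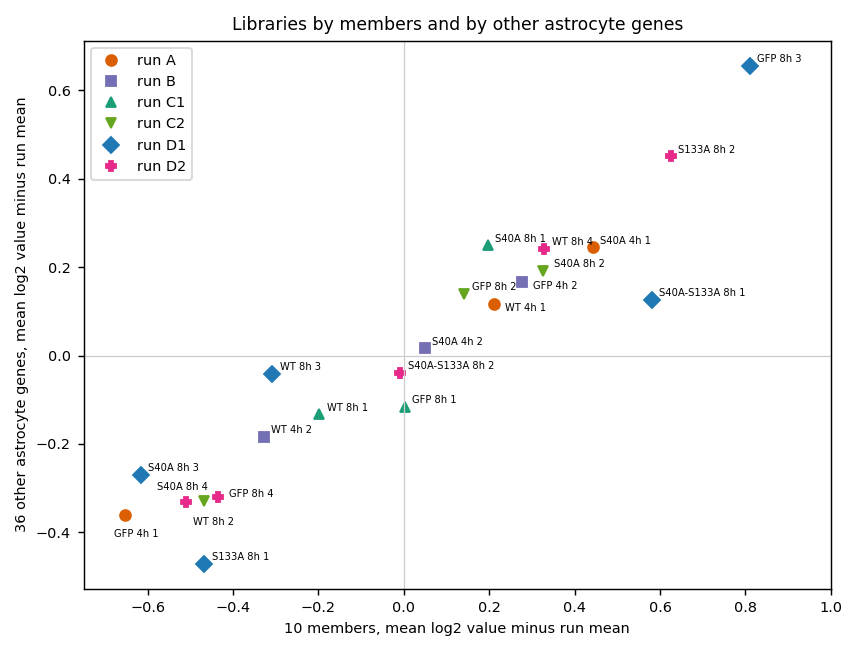
Mean log2 value of the 10 genes (horizontal) against that of 36 other astrocyte genes (vertical) in the 22 libraries, both after the run mean was subtracted; labels give virus, hours and replicate. GFP replicate 3 at 8 h lies at 0.81 and S133A replicate 2 at 0.63 on the horizontal axis, and GFP replicate 1 at 4 h lies lowest at -0.65.

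The mean log2 value of the 10 genes, with run means subtracted, thus placed libraries of the same virus at both ends: GFP replicate 3 at 8 h stood at 0.81 and GFP replicate 4 at -0.44, and S133A replicate 2 stood at 0.63 and replicate 1 at -0.47. The mean of the other astrocyte genes correlated with it at 0.94 and that of the 20 neuron genes at -0.48 over the 22 libraries. Markers of other cells were also summed. The summed level of 12 microglia genes was 3.53 to 41.9 scaled FPKM, that of 21 vascular and fibroblast genes 17.0 to 36.7, with Igfbp7 and Tagln listed at 0 in all libraries, and that of 22 reactive astrocyte genes 21.2 to 69.8. The sums were 788 to 1554 for the other astrocyte genes, 776 to 1471 for the radial glia genes, 308 to 534 for glial fate signalling, 49.1 to 323 for progenitors, 430 to 991 for inhibitory neurons and 36.5 to 144 for the oligodendrocyte lineage. No gene of any of these lists was called in a virus comparison, where 0% to 0.0992% of all tested genes were. Against such shares a count of 0 sets no list apart.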

How the data were processed

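For every library the authors deposited FPKM for 24490 entries, each with a confidence interval and a status. Per the submitters' processing notes, CASAVA 1.7, Bowtie 0.12.2 and Cufflinks were used, and mm8 and mm10 are named without a role. Gene positions in the files fall on mm10. Read depth and strand handling are not given in the sources used here, so counting error is known only from the deposited intervals, and overlapping genes cannot be told apart.

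Of the entries, 12118 had a mean of at least 1 FPKM. Removing those among the 23 entries with a failed estimate left 12097 genes tested, including all 10 glial genes. FPKM values were scaled by median-of-ratios factors, 1 was added and log2 taken, so fold changes of low genes are understated. limma 3.58.1 (R 4.3.3) with a mean-variance trend gave two-sided tests, adjusted by Benjamini-Hochberg over all genes tested. The 16 libraries at 8 h entered 1 fit with library set as a term, and the 6 at 4 h a separate fit. Run, time and interaction comparisons used all 22, the time comparison without a run term. The tests were checked on simulated data. Noise there was drawn independently for each gene and library, with no run effects shared by libraries beyond the change planted. The check therefore does not cover what run differences do to the fits without a run term. As replicates are not stated to be separate cultures, p-values reflect only how much the deposited samples vary, which could be technical. Same-numbered libraries of different viruses correlated in their deviations in run A (0.55 to 0.56) and mostly in run D1 (0.07 to 0.40, 8 of 10 pairs above 0.1) but not in run C1 (-0.04 to 0.05). As not every pair exceeded 0.1, the numbers were not taken as pairs. Alternatives were no scaling, upper-quartile scaling, a pseudocount of 0.1 FPKM, no filter, a minimum of 5 FPKM, no trend, a run block, only the groups compared and each library left out. Those added after the data were seen used the midpoint of the interval or, for 8 h against 4 h only, left out run A.

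The 10 genes, and the lists of other astrocyte, radial glia, reactive astrocyte, glial fate signalling, progenitor, neuron, inhibitory neuron, oligodendrocyte, microglia and vascular genes, were chosen with earlier results of these data known. Genes named outside the 10 were the 8 most like their mean, the most alike gene of each, and the called genes of each list with the smallest p, up to 8, as far as they are described. Promoter sequences came from RefSeq. Tables and plots were made with pandas 2.3.3, matplotlib 3.10.9 and numpy 2.4.6 under Python 3.11.15.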

Additional observations from a re-analysis of the deposited data

Results flagged for a closer look

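In 4 of the 30 checks made, 1 of the 4 libraries of an 8 h group stood far from the other 3 in scaled FPKM, its gap being large for the group's range; chance flags about 1 in 20 groups. Slc1a2 was 4.55 in WT replicate 2, against 6.98 to 7.05 in the other WT libraries. Slc1a3 was 20.4 in WT replicate 4, against 7.37 to 9.17. Hopx was 6.77 in GFP replicate 1, against 9.90 to 10.5. Nes was 3.20 in S40A replicate 3, against 4.46 to 4.67. The 4 cases fall in 4 different libraries, of runs C2, D2, C1 and D1.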

How the results depend on the processing

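The count of 0 of the 10 glial genes in each virus comparison and in the differences between times was unchanged under every alternative run, with each library left out included. With library run as a replicate block the count also stayed at 0 in all 11 virus comparisons, and the count over all genes went from 12, 11 and 11 to 10, 8 and 7 at 4 h and was unchanged at 8 h. Counts over all genes moved more. Over all alternatives and left-out libraries they ran at 8 h, against GFP, from 1 to 3 for S40A (1 as reported), 2 to 9 for S133A (3), 1 to 10 for S40A-S133A (2) and 2 to 11 for all CREB forms (3), and against WT from 2 to 8 for S133A (2) and 1 to 16 for S40A-S133A (1). At 4 h they ran from 0 to 29 for WT against GFP (12), 0 to 34 for S40A against GFP (11) and 0 to 31 for S40A against WT (11), and for the differences between times from 0 to 11 with WT (2) and 0 to 14 with S40A (1). Between runs they ran from 3705 to 6797 for B against A (5753), 11 to 225 for set D against C (39), 0 to 379 for C2 against C1 (0) and 1895 to 4727 for D2 against D1 (3145). For run B against A the count of glial genes was 2 with no scaling (adding Slc1a2, -0.66) and 2 with the interval midpoint, and 1 to 3 with a library left out. For D2 against D1 it was 0 to 1 with a library left out. For 8 h against 4 h it was 4 without run A, 4 without run A and GFP replicate 2 at 8 h, and 6 to 7 with single libraries left out, Slc1a3 being lost without GFP replicate 2 (-0.80), WT replicate 1 (-0.73) or S40A replicate 1 (-0.76) at 4 h. With no scaling Slc1a2 missed the threshold (-0.41, adjusted p = 0.0524). Of 3182 values of single genes under alternatives, 207 had the other sign, none of them called, and 186 of these had a library left out. The number of libraries per group and the unknown read depth limit all of these comparisons.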

Other observations

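Signalling genes that steer progenitors to an astrocyte fate were, Id2 aside, not described above one by one. Some of these signalling genes also count in other lists, such as Id2 and Notch1 among radial glia genes and Stat3 among reactive astrocyte genes. Of 23 tested, 10 fell and 4 rose between the 4 h and 8 h libraries, with hours and library set again not to be told apart, and 9 fell and 3 rose without run A. Over all tested genes 42.8% were called, and 39.2% without run A. The Notch ligand Dll3 differed by -0.96 (SE 0.11, adjusted p = 1.19e-05), the receptor Notch1 by -1.16 (SE 0.22) and its nuclear partner Rbpj by -0.99 (SE 0.19). The BMP receptor Bmpr1a differed by -0.66 (SE 0.11) and its effector Smad1 by -0.50 (SE 0.09). Id2, an inhibitor of differentiation that BMP signals induce, rose by 0.87 (SE 0.11), and Cntfr, a cytokine receptor of the pathway that leads to Stat3, by 0.50 (SE 0.08).

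Of the reactive astrocyte genes, 7 of 22 were tested and 3 of these were called, a share like the 42.8% over all genes. Ptx3 fell by 1.40 (SE 0.17), Stat3 fell by 0.74 (SE 0.25) and Hspb1, a small heat shock protein that other cells also make, rose by 1.62 (SE 0.29) over the same comparison.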
